A study of Saccharomyces cerevisiae with 33 samples.

Results

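The genes of the mitochondrial ribosome were taken from an Affymetrix Yeast Genome 2.0 series as the probe sets that match 1 Saccharomyces cerevisiae gene whose symbol is MRP, MRPL, MRPS or RSM followed by a number. The rule found 66 genes, with 1 probe set each, among 5449 genes on the array. By name, 34 were large subunit genes (MRPL), 20 were small subunit genes (MRPS or RSM) and 12 carried an MRP number, which serves for proteins of either subunit. The cultures were aerobic glucose chemostats of MATa prototrophic strains derived from CEN.PK113-7D, limited by nitrogen (N) or by carbon (C), in a medium that held inositol and choline. In each limitation an opi1Δ strain, which lacks the repressor of phospholipid synthesis genes, and ino2Δ, ino4Δ and ino2Δino4Δ strains, which lack 1 or both partners of the Ino2-Ino4 activator, stood against the reference strain. Every deletion was made with a loxP-Kan-loxP cassette. Under C-limitation the opi1Δ cultures oscillated and were sampled at maximum and at minimum CO2 production, so that there were 11 groups of 3 arrays. The labels number the arrays of a group without saying that each came from its own culture, and p-values measure the spread between these arrays.

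The mitochondrial ribosome translates the few proteins that mitochondrial DNA encodes, most of which are core subunits of the respiratory chain and of ATP synthase. Nearly all of its own proteins are encoded in the nucleus, made in the cytosol and imported, and the large subunit joins amino acids while the small subunit reads the message. Some members have bacterial counterparts and others occur only in mitochondria.

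Some arrays did not read as labelled, and 4 of the 33 had an INO2 or INO4 signal against their label. Signals are log2 values, on which 1 unit is a 2-fold difference, and the signal of probe sets for another species placed background at 5.47. The arrays labelled ino2Δ C-limited 2 and 3 read INO4 at 5.08 and 5.06, although the array labelled ino2Δ C-limited 1 read it at 6.53. The array labelled ino4Δ C-limited 3 read INO2 at 5.19, against 6.34 and 6.18 in arrays 1 and 2 of that label. The array labelled ino2Δino4Δ C-limited 1 read INO4 at 6.64, against 5.09 and 5.15 in the other arrays of that label. Over all genes the array labelled ino4Δ C-limited 3 correlated best with ino2Δino4Δ C-limited 3 (r = 0.997), and at most at 0.930 with an array of its own label. The arrays labelled ino2Δ C-limited 2 and 3 correlated at 0.9995, and no gene differed between them by more than 0.5. The arrays ino2Δ N-limited 1 and 2 correlated at 0.9994. A separate set of 5 arrays, opi1Δ minimum CO2 1 and 3, ino2Δino4Δ N-limited 1 and 3 and reference N-limited 1, deviated from their groups in a shared way and read HAC1 between 6.31 and 7.04, against 9.0 to 10.64 in the other 28. Results that rest on these arrays are given with and without them. OPI1 was at background in all opi1Δ arrays. The MATa genes STE2, MFA1, MFA2, BAR1 and ASG7 read above background throughout, with ASG7 at 5.81 in the C-limited reference. Of the MATalpha genes, MF(ALPHA)2 stayed at background. MF(ALPHA)1 had group means of 11.40 in N-limited opi1Δ and 9.38 in opi1Δ at maximum CO2, against 7.02 and 5.79 in the N- and C-limited reference. Group means lay between 6.38 and 7.21 for SAG1 and between 5.54 and 6.17 for STE3.

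All 66 genes had a mean signal above background. Their mean signals ran between 6.94 and 9.88 with a median of 8.05, against a median of 7.36 over all genes. The medians of the large and small subunit genes were 8.06 and 7.93. The highest means belonged to MRP8 (9.88), to the large subunit gene MRPL23 (9.15) and to MRPS12 (9.11), whose protein sits at the decoding centre. The lowest belonged to RSM25 (6.94), MRPS35 (6.99) and RSM22 (7.16), which encodes a methyltransferase-like protein. The levels of different probe sets also depend on probe response, so this order is one of signals and not of transcript numbers.

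The members varied more over the groups than a typical gene. The standard deviation over the 11 group means had a median of 0.46 for the members, against 0.25 for all genes, and the limma F test over the groups passed an adjusted p below 0.01 for 66 of 66 members, against 76.3% of all genes. By this standard deviation the most variable members were MRPL32 (0.67), RSM19 (0.67) and MRPL11 (0.63), and the least variable were RSM22 (0.26), MRPL23 (0.27) and RSM18 (0.29). The highest group mean lay in ino2Δino4Δ under N-limitation for 41 members and in ino4Δ under C-limitation for 23. The lowest lay in ino2Δ under N-limitation for 51.

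The median signal of the 66 genes shows both peaks array by array. Under N-limitation it was 9.17, 9.05 and 9.06 in ino2Δino4Δ, 7.77, 7.66 and 7.83 in opi1Δ, 7.45, 7.42 and 7.50 in ino2Δ, 7.65, 7.55 and 7.61 in ino4Δ, and 7.93, 7.86 and 7.75 in the reference. Under C-limitation it was 8.93, 8.89 and 8.11 in ino4Δ, 7.92, 8.65 and 8.59 in ino2Δ, 7.85, 8.04 and 8.09 in ino2Δino4Δ, 8.18, 8.24 and 8.12 in opi1Δ at maximum CO2, 7.92, 7.67 and 8.0 in opi1Δ at minimum CO2, and 7.90, 7.86 and 7.98 in the reference. The N-limited double mutant stood clear of every other N-limited array, and the C-limited ino4Δ and ino2Δ groups were each split, with the split falling between arrays that read the INO genes differently. The array medians of all genes lay between 7.14 and 7.44.

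**Figure D1:**
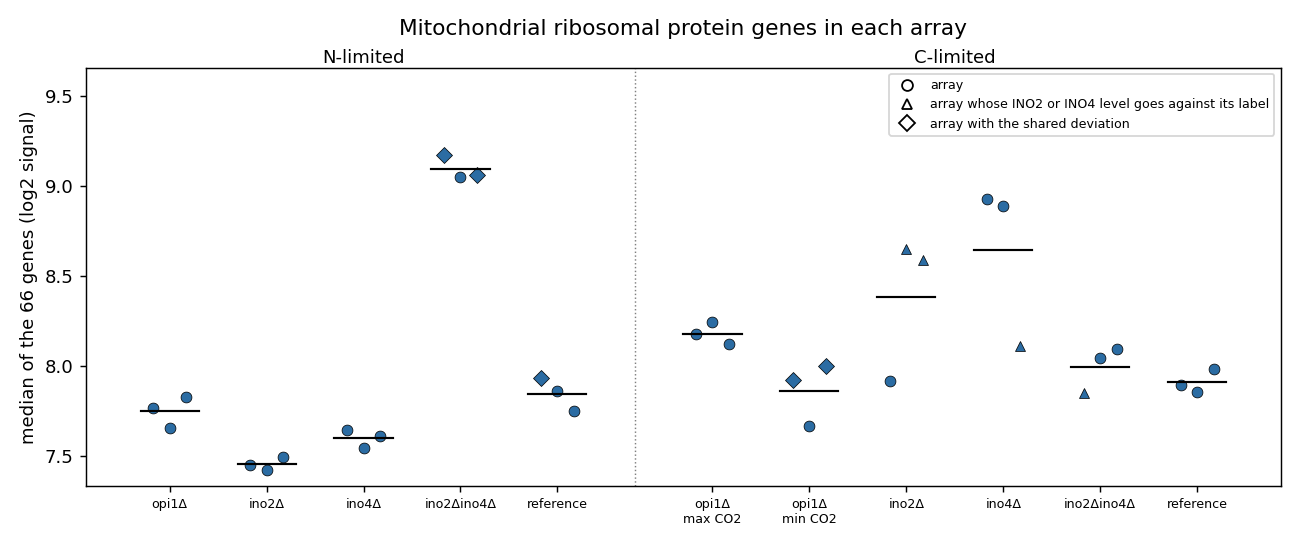
Median log2 signal of the 66 mitochondrial ribosomal protein genes (vertical axis) in each of the 33 arrays, by strain and limitation, with the group mean as a line. Triangles are the 4 arrays whose INO2 or INO4 level goes against the label, diamonds the 5 arrays with the shared deviation. The ino2Δino4Δ N-limited arrays read 9.05 to 9.17 and the N-limited reference 7.75 to 7.93.

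The largest response was that of the double mutant under N-limitation. Of the 66 genes, 49 were higher in ino2Δino4Δ than in the reference and 1 was lower by limma at an adjusted p below 0.01, where 8.06% of all genes were higher and 8.09% lower. The median change of the members was 1.02 on the log2 scale, a 2.03-fold higher signal, against 0.01 over all genes. The arrays of the groups did not overlap for 51 members, against 26.4% of all genes. The RNA came from whole cultures, in which a change in every cell and one in some of the cells cannot be told apart.

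The genes called belonged to both subunits. Of 34 MRPL genes 29 rose, with a median change of 1.11. Among the 20 MRPS and RSM genes 14 rose, with a median of 0.81, and among the 12 MRP-numbered genes 6 rose and 1 fell, with a median of 0.86. RSM19, the counterpart of the bacterial small subunit protein of the same number, read 9.24, 9.15 and 9.63 in ino2Δino4Δ and 7.75, 7.33 and 7.18 in the reference. Its log2 fold change was 1.92 ± 0.20 (SE), with a limma adjusted p of 4.3e-08. The groups were far apart, with more than 1 unit between the nearest arrays.

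MRPL32, a large subunit protein that matures by proteolytic cleavage in the mitochondrion, read 10.09, 9.65 and 10.17 in ino2Δino4Δ and 8.44, 8.15 and 7.76 in the reference, a change of 1.85 ± 0.25 (limma adjusted p = 3.0e-06). MRPL11 read 9.43, 8.89 and 9.12 in ino2Δino4Δ and 6.92, 7.57 and 7.72 in the reference, a change of 1.75 ± 0.21 (adjusted p = 5.3e-07). MRPL37 changed by 1.63 ± 0.26 (adjusted p = 3.3e-05). In each of these genes all arrays of the double mutant exceeded all arrays of the reference. MRP8 went the other way, with 9.59, 9.37 and 9.37 in ino2Δino4Δ against 10.24, 9.85 and 9.80 in the reference, and fell by 0.52 ± 0.11 (adjusted p = 7.3e-04). This gene was named as a mitochondrial ribosomal protein from its sequence and has since not been counted among the proteins of the ribosome. RSM22 was among those called, at 0.55 ± 0.15 (adjusted p = 0.00743).

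The 16 members not called had positive changes too. In all 5 arrays of the shared deviation, 8 of them read below the mean of their group's arrays outside the 5. So did 7 of the 49 called higher, and 23.8% of all genes. For the double mutant that mean is array 2 alone, so the count is not independent of the spread that enters the test. MRPL35 read 7.31, 8.50 and 7.09 in ino2Δino4Δ and 6.82, 7.68 and 7.65 in the reference, and RSM24 read 6.79, 8.30 and 7.06 against 6.55, 7.31 and 7.40. MRP1, named here after its values were seen, read 7.97, 9.21 and 7.75 against 7.40, 7.94 and 7.98. In all 3 genes array 2 of the double mutant, the one outside the 5, was the highest, and arrays 1 and 3 of the double mutant overlapped the reference. Without the 5 arrays, 37 members were higher and none lower, MRP8 being at -0.45 with an adjusted p of 0.0204, where 6.37% of all genes were higher, and the median change was 1.04. That fit rests on 1 array of the double mutant, assumed to vary like the other groups. Fitted on the groups of the comparison alone, limma called 13 members (1.38% of all genes higher), and the t-test of the study's methods called none after adjustment (0.0918% of all genes higher).

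**Figure D2:**
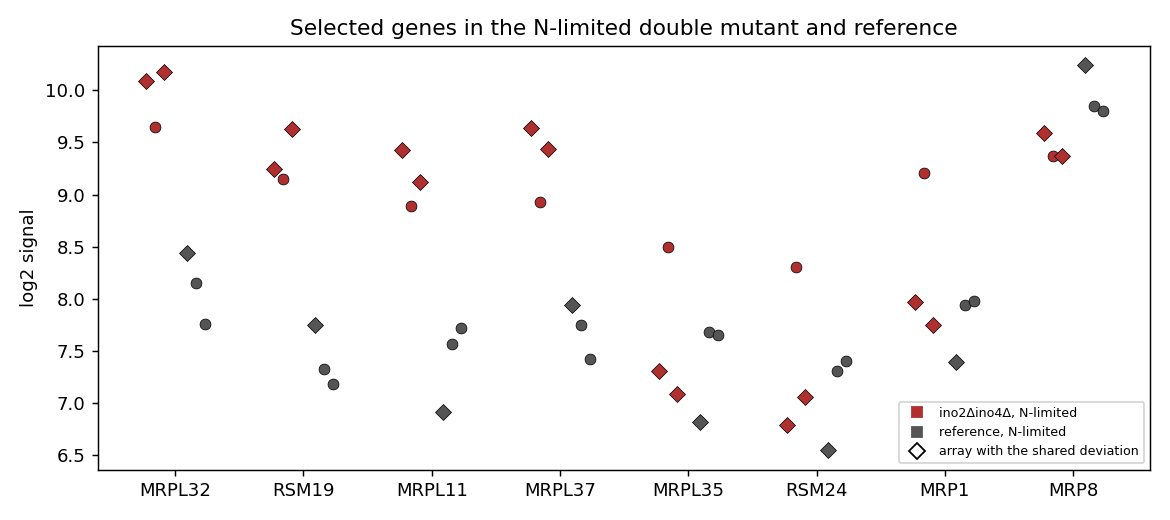
Log2 signal (vertical axis) of 8 genes in the 3 arrays of N-limited ino2Δino4Δ (red, left) and of the N-limited reference (grey, right). Diamonds are arrays with the shared deviation. MRPL32, RSM19, MRPL11 and MRPL37 do not overlap between the groups, MRPL35, RSM24 and MRP1 do, and MRP8 is lower in the double mutant.

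Under N-limitation limma called no member in the strains with a single deletion. In ino2Δ, 64 of the 66 members had negative changes, with a median of -0.36, 28 of them passed an unadjusted limma p of 0.05 (645 of all 5449 genes did), and none passed after adjustment, where 0.0918% of all genes were higher and 0.514% lower. The t-test of the methods called 1 member, where it called 0.0184% of all genes higher and 0.184% lower. The arrays of ino2Δ and the reference did not overlap for 44 members, against 26.8% of all genes. In ino4Δ the median was -0.20, 7 members passed the unadjusted p against 695 of all genes, and limma and the t-test called none (0.0734% of all genes higher, 0.477% lower by limma). In opi1Δ the median was -0.08, no member passed the unadjusted p, and neither test called one (1.87% of all genes higher, 0.661% lower by limma). Without the 5 arrays the medians were -0.35 in ino2Δ, -0.19 in ino4Δ and -0.09 in opi1Δ. Limma again called no member, where 1.38%, 1.16% and 4.15% of all genes were called in either direction.

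Under C-limitation the members were highest in ino4Δ. Limma called 24 members higher in ino4Δ than in the reference and none lower, where 6.64% of all genes were higher and 6.74% lower, and the median change was 0.70, a 1.62-fold higher signal. By subunit, 15 of 34 MRPL, 6 of 20 MRPS and RSM and 3 of 12 MRP-numbered genes rose. MRPL38, a large subunit gene, read 9.82, 9.65 and 8.68 in ino4Δ and 8.25, 8.38 and 8.45 in the reference, a change of 1.02 ± 0.20 (limma adjusted p = 0.00101). Arrays 1 and 2 lay more than 1 unit above the reference, and the array labelled ino4Δ C-limited 3 lay much nearer to it.

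Next in size were MRPL24 (0.97 ± 0.25, adjusted p = 0.00698), MRPL19 (0.96 ± 0.20, adjusted p = 0.00139) and MRPL27 (0.95 ± 0.22, adjusted p = 0.0033), all of the large subunit. Without the 4 arrays whose INO readings go against their labels, 60 members rose (14.1% of all genes higher), with a median of 0.95, and they included all 34 MRPL genes, 18 of 20 MRPS and RSM genes and 8 of 12 MRP-numbered genes. The count was 56 when only ino4Δ array 3 was left out and 0 when ino4Δ array 1 or 2 was left out. It was 3, 4 and 12 without reference arrays 1, 2 and 3. It was 0 both when only these groups were fitted (0.257% of all genes higher) and by the t-test of the methods (0.0367%). The shares of all genes were not taken for the counts with 1 array left out.

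The calls of the ino4Δ C-limited and ino2Δino4Δ N-limited comparisons had 20 members in common. That is 40.8% of the 49 and 83.3% of the 24. The comparisons share no arrays, but both tests use the same spread of each gene, taken over all arrays, so the calls are not independent. Over all genes 89 were higher in both, which is 20.3% of the 439 and 24.6% of the 362. With the 4 arrays left out of both, 51 members were shared of 52 and 60, against 209 of 523 and 771 over all genes.

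In ino2Δ under C-limitation 65 of 66 changes were positive, with a median of 0.46, and 41 passed an unadjusted limma p of 0.05 against 792 of all 5449 genes, but limma and the t-test called none after adjustment (0.0918% of all genes higher and 0.734% lower by limma). This median came from the arrays labelled 2 and 3, in which INO4 was at background. Without the 4 arrays it was 0.01, from the single array left, and without array 1 it was 0.69, with 12 members higher and 1 lower, where 2.17% of all genes were higher and 3.16% lower. In ino2Δino4Δ under C-limitation the median was 0.04, no member passed an unadjusted p of 0.05, and neither test called one (0.0734% of all genes higher, 0.496% lower by limma). Its arrays 2 and 3, which also read INO2 and INO4 at background, had member medians of 8.04 and 8.09, below the 8.65 and 8.59 of the arrays labelled ino2Δ C-limited 2 and 3.

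**Figure D3:**
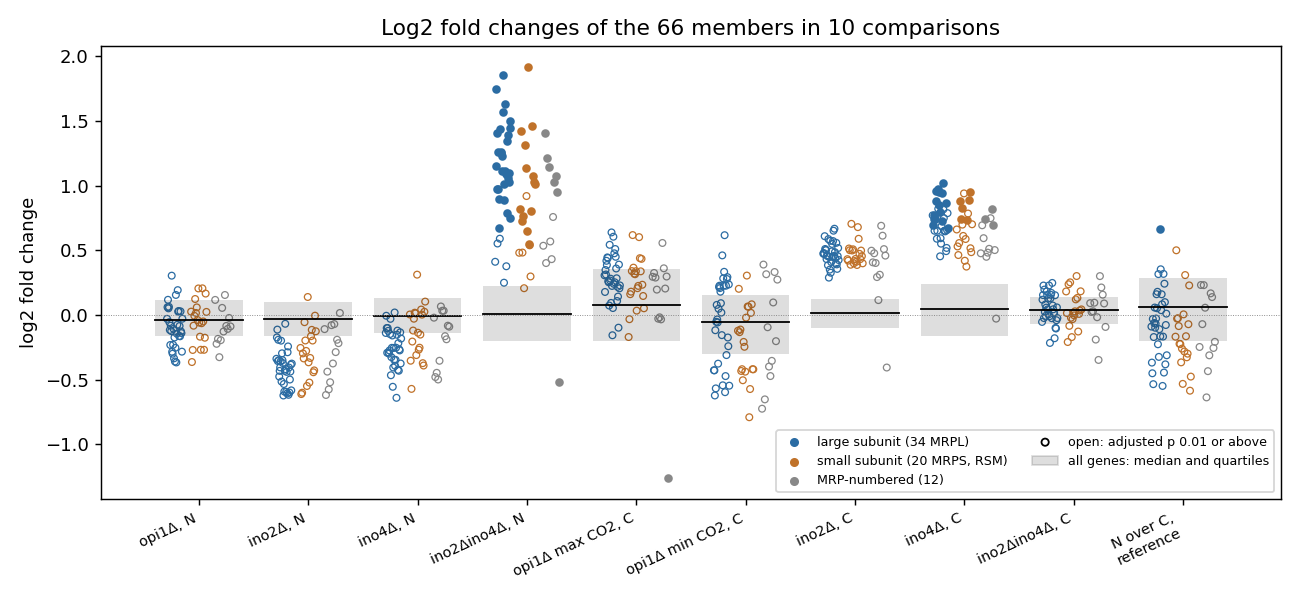
Log2 fold change (vertical axis) of each of the 66 members in 9 comparisons of a mutant with the reference of the same limitation (N or C) and in the reference under N- over C-limitation. Filled points passed a limma adjusted p below 0.01, grey bars span the quartiles of all 5449 genes with their median as a line. The members of ino2Δino4Δ under N-limitation (median 1.02) and of ino4Δ under C-limitation (0.70) lie above the bars, and the low filled point in 2 columns is MRP8.

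Whether a mutation acted differently under the 2 limitations was tested as the change under N-limitation minus the change under C-limitation. For ino2Δino4Δ this difference was positive for 65 of 66 members with a median of 0.92, and 21 passed (3.23% of all genes were higher and 4.37% lower): 13 MRPL, 5 MRPS or RSM and 3 MRP-numbered genes. The largest were MRPL32 (2.07 ± 0.35, limma adjusted p = 1.6e-04) and RSM19 (1.89 ± 0.28, adjusted p = 2.4e-05). MRPL37 (1.66 ± 0.37, adjusted p = 0.00266) and MRPS17 (1.63 ± 0.36, adjusted p = 0.0023) followed. The count was 37 without the 4 arrays (5.01% of all genes higher) and 11 without the 5 (4.28%), when MRPL37 no longer passed (adjusted p = 0.0225).

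For ino4Δ the difference was negative for all 66 members, with a median of -0.87, and 6 passed (1.25% of all genes were higher and 2.18% lower). These were MRPL39 (-1.46 ± 0.35, limma adjusted p = 0.0094), MRPL3 (-1.35 ± 0.28, adjusted p = 0.0041), MRPL38, MRPL19, MRP17 and MRPL13. Without the 4 arrays 54 passed (9.98% of all genes lower), with a median of -1.13, and none passed when only these groups were fitted. Without the 5 arrays, which include reference N-limited 1, 13 passed (7.1% of all genes lower). For ino2Δ the median was -0.81 and limma called none, although 56 passed an unadjusted p of 0.05, against 886 of all 5449 genes (0.128% of all genes were higher and 0.385% lower after adjustment). It was -0.34 without the 4 arrays, and 32 were lower without ino2Δ array 1, where 3.34% of all genes were. For opi1Δ, set against minimum CO2, the median was -0.01 and limma called none, with 10 at an unadjusted p of 0.05 against 2081 of all genes (2.88% of all genes higher, 1.85% lower).

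The limitation itself moved the members little in the reference strain. N-limited against C-limited, the median was -0.09 and limma called only MRPL33, where 14.7% of all genes were higher and 8.61% lower. MRPL33, a large subunit gene, read 8.96, 8.51 and 8.29 under N-limitation and 7.90, 7.89 and 7.96 under C-limitation, a change of 0.67 ± 0.19 (adjusted p = 0.00834). The groups did not overlap, but the highest N-limited array belonged to the 5 with the shared deviation, and the call was lost when that array, or any reference array but N-limited 3, was left out.

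Between the phases of the opi1Δ oscillation, 19 members were higher and 1 lower at maximum than at minimum CO2. The share higher, 28.8%, was near that of all genes (28.4%), so the count higher is no feature of these genes. Only 1 member was lower, against 17% of all genes. RSM24 read 7.83, 7.90 and 7.82 at maximum CO2 and 6.31, 7.09 and 6.46 at minimum CO2, a change of 1.23 ± 0.29 (limma adjusted p = 8.2e-04). MRPL35 changed by 1.15 ± 0.27 (adjusted p = 8.7e-04). Both were lowest in the minimum CO2 arrays of the shared deviation. The median change of the members was 0.37. Leaving out the 5 arrays leaves only minimum CO2 array 2, and the median change was then 0.53. Over all genes that array correlated at most at 0.897 with an array of its own group. Of the cytosolic ribosomal protein genes 100 of 128 were higher at maximum CO2.

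MRP8 was the exception in this comparison as well. It read 8.83, 8.93 and 8.97 at maximum CO2, against 10.40, 10.45 and 10.49 at minimum CO2 and 10.19, 10.16 and 10.17 in the C-limited reference. The change between maximum and minimum CO2 was -1.53 ± 0.11 (limma adjusted p = 3.2e-11), and that between maximum CO2 and the reference was -1.26 ± 0.11 (adjusted p = 1.5e-09). The 3 groups did not overlap.

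MRP8 was the 1 member called between opi1Δ at maximum CO2 and the reference in the fit over all groups, where 17.5% of all genes were higher and 13.7% lower. The median change was 0.27. With only these 2 groups in the fit, 39 members were higher (36.1% of all genes), and the t-test of the methods called 11 higher (26.1% of all genes). At minimum CO2 the median was -0.10 and limma called none, with 16 at an unadjusted p of 0.05 against 2052 of all genes, and the t-test called none (3.25% of all genes higher, 4.48% lower by limma). Leaving out the 4 arrays, 8 members were higher and 1 lower at maximum CO2, where 19.2% of all genes were higher and 14.9% lower. At minimum CO2, 7 were then lower and none higher, where 6.35% of all genes were lower and 4.07% higher. None of the 4 arrays is in these comparisons. Without the 5 arrays of the shared deviation, which leaves only array 2 at minimum CO2, the median change there was -0.24.

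Other genes of mitochondrial translation moved with the members in the double mutant under N-limitation. Of 13 mitochondrial ribosomal genes with other names 8 rose, where 8.06% of all genes did, and the count was 11 without the 4 arrays and 5 without the 5. Among them were PET123 (1.55 ± 0.15, limma adjusted p = 2.4e-08) of the small and RML2 (1.41 ± 0.20, adjusted p = 8.0e-06) of the large subunit. Of 13 mitochondrial aminoacyl-tRNA synthetase genes, which charge the tRNAs used in the organelle, 12 rose, with a median of 0.76, and all 13 rose without the 4 or without the 5 arrays. They included the tyrosyl-tRNA synthetase MSY1 (1.10 ± 0.14, adjusted p = 9.3e-07).

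Among 12 translation factor genes 5 rose (7 without the 5 arrays), including the release factor MRF1 (1.42 ± 0.19, adjusted p = 4.2e-06) and the ribosome recycling factor RRF1 (1.08 ± 0.17). Among 13 genes of ribosome assembly or rRNA handling 7 rose, also without the 5 arrays, including the RNA helicase MSS116 (1.71 ± 0.15, adjusted p = 2.4e-09) and MAM33 (1.54 ± 0.21). Of 15 message-specific translational activator genes 2 rose, MAM33 and CBP6. Limma called none of 128 cytosolic ribosomal protein genes (median 0.01, 9 at an unadjusted p of 0.05) and none of 53 genes of nucleolar ribosome assembly (median 0.29, 7 at an unadjusted p of 0.05).

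The genes whose products work beside the mitochondrially made proteins moved the opposite way. Of 34 nuclear genes of the respiratory chain and ATP synthase 30 fell, with a median of -1.32, and 31 fell without the 5 arrays. Their median signals were 8.72, 9.07 and 8.55 in N-limited ino2Δino4Δ and 9.98, 10.17 and 10.24 in the reference. ATP5, an ATP synthase subunit, changed by -2.17 ± 0.39 (limma adjusted p = 1.3e-04) and COX5A, a cytochrome c oxidase subunit, by -1.96 ± 0.24 (adjusted p = 9.1e-07). In C-limited ino4Δ only 1 of these 34, SDH3, was called, and it rose (0.70 ± 0.16, adjusted p = 0.00242). Without the 4 arrays 7 of the 34 rose, with a median of 0.38, and without the 5 arrays 7 rose.

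**Figure D4:**
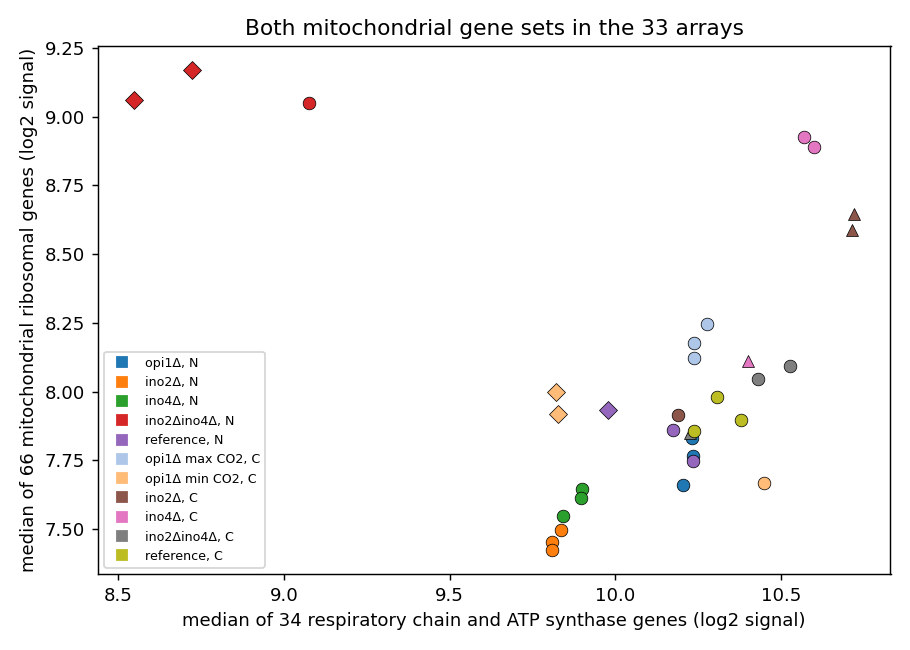
Median log2 signal of the 66 mitochondrial ribosomal genes (vertical axis) against that of 34 respiratory chain and ATP synthase genes (horizontal axis) in the 33 arrays, coloured by group. Triangles are arrays whose INO levels go against the label, diamonds those with the shared deviation. The N-limited ino2Δino4Δ arrays stand alone at the upper left, and the C-limited ino4Δ arrays 1 and 2 at the upper right.

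In C-limited ino4Δ the genes of mitochondrial translation again went with the members. Of the synthetases 10 of 13 rose, including the lysyl-tRNA synthetase MSK1 (0.76 ± 0.18, limma adjusted p = 0.00384), and of the mitochondrial ribosomal genes with other names 6 of 13, including MHR1 (0.98 ± 0.24, adjusted p = 0.00479). Nucleolar assembly genes went down, 23 of 53, with a median of -0.88. These counts were 13, 12 and 41 without the 4 arrays.

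PUF3 encodes an RNA-binding protein of the messages of mitochondrial proteins and HAP4 the regulatory subunit of an activator of respiratory genes. In N-limited ino2Δino4Δ neither passed the test in the fit over all arrays, with changes of 0.27 (limma adjusted p = 0.374) for PUF3 and -0.25 (adjusted p = 0.378) for HAP4. Without the 5 arrays, which leaves only array 2 of the double mutant, the changes were 0.83 for PUF3 and -0.46 for HAP4. PUF3 read 6.7, 7.7 and 6.6 in the double mutant and 6.4, 6.9 and 6.9 in the reference, so arrays 1 and 3 lay within the reference range. In C-limited ino4Δ HAP4 rose by 0.75 ± 0.20 (adjusted p = 0.0069), and PUF3 changed by -0.03 (adjusted p = 0.942). Without the 4 arrays HAP4 rose by 1.14 (adjusted p = 3.7e-08).

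Large and small subunit genes moved together over the arrays. The Pearson correlation between 2 members had a median of 0.85 for pairs of large subunit genes, 0.78 for pairs of small and 0.80 between the subunits, over 33 arrays. Over the 28 arrays without the shared deviation these medians were 0.93, 0.89 and 0.91. The arrays of a group share a strain and a medium, so that these values are a description. Over the 28 arrays 63 of 66 members correlated above 0.8 with the median of the other members, and MRP8 alone was below 0.5, at -0.21.

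The median of the large minus that of the small subunit genes tended to be higher in the 5 arrays than in the rest, with some overlap. It lay between 0.19 and 0.74 in these 5 and between -0.10 and 0.26 in the other 28, with medians of 0.45 and 0.08. The lowest of the 5, opi1Δ at minimum CO2 array 3, lay within the range of the others. In the N-limited double mutant it was 0.45, -0.04 and 0.74, and in the N-limited reference 0.45, 0.20 and 0.08. Array 2 of the double mutant was the lowest of its group, and array 1 of the reference the highest. Pooled over the 11 groups, the standard deviation of this difference within a group was 0.16. It ran from 0.02 in C-limited ino4Δ to 0.40 in the N-limited double mutant, and was 0.19 in the N-limited reference. The large subunit genes changed by 0.30 more than the small in the N-limited double mutant, and by 0.14 more without the 5 arrays. In the comparisons of a mutant with the reference under C-limitation the difference between the subunits was 0.16 or less.

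**Figure D5:**
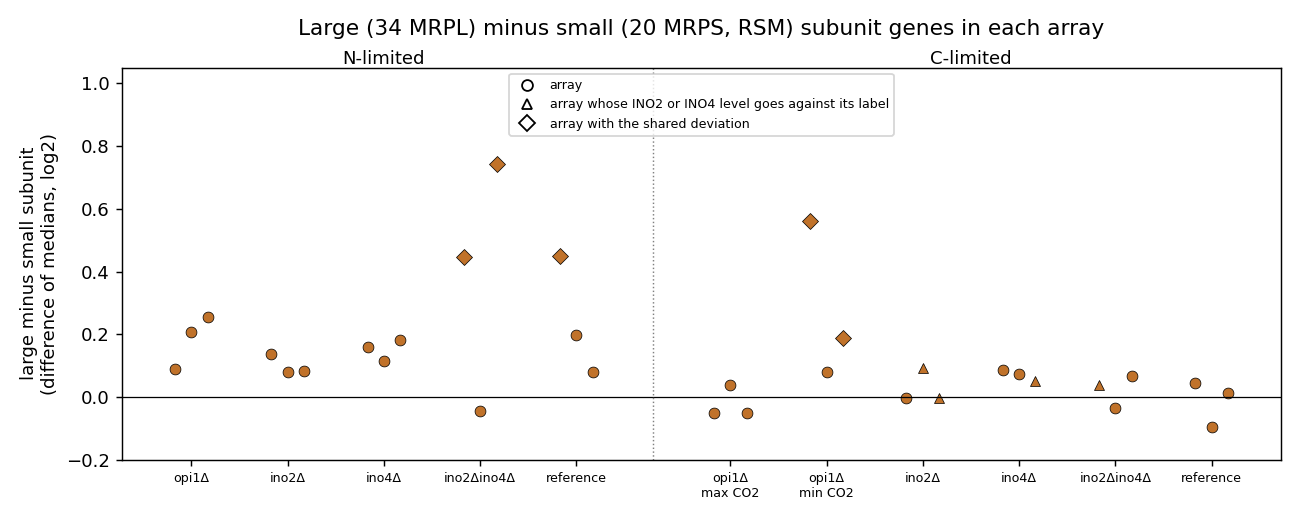
Median log2 signal of the 34 MRPL genes minus that of the 20 MRPS and RSM genes (vertical axis) in each of the 33 arrays, by strain and limitation. Diamonds are the 5 arrays with the shared deviation, at 0.19 to 0.74, and the other 28 arrays lie between -0.10 and 0.26.

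The shared deviation did not move a whole subunit. In all 5 arrays 17 of 34 large, 7 of 20 small and 4 of 12 MRP-numbered genes read above the mean of their group's arrays outside the 5. The share over all genes was 28.9%. Below that mean read 6, 6 and 3, against 23.8% of all genes. For the N-limited double mutant and for opi1Δ at minimum CO2 that mean is a single array. RSM24 (-1.0 on average) and MRPL35 (-0.90) deviated lowest, and MRPL24 (0.77) and MRPL39 (0.71) highest. Its part in the large minus small difference was not tested.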

How the data were processed

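RNA of 33 chemostat samples was hybridised to Affymetrix Yeast Genome 2.0 arrays. The deposited values are log2 expression values, which the authors made by normalising all arrays together with PLIER (version not given in the sources used here). They carry no counts, and precision is limited by how many arrays there are. Of 10928 probe sets, 7245 are in GEO's platform annotation and 7244 of these have 1 symbol, 5498 were paired with 1 S. cerevisiae gene through the RefSeq gene table (R64, names only) and the probe set of highest mean was kept for each of 5449 genes. The 95th percentile of 1746 probe sets of another species gave the background.

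Groups came from GEO's labels. Limma 3.58.1 in R 4.3.3 was fitted with 1 coefficient per group over all arrays, and p-values were adjusted by Benjamini-Hochberg over all genes, with calls below 0.01. On simulated data with 200 changed genes for opi1Δ at maximum CO2 against the reference (5449 genes), 87 of 100 genes changed by 1 and 99 of 100 changed by 2 (log2) were recovered, with 4 false calls. The simulation gave each gene independent noise of the same spread in every group. In the data the standard deviation of the member medians ran from 0.04 in N-limited ino2Δ to 0.46 in C-limited ino4Δ, so the false calls there are not covered.

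The text names, per comparison, up to 4 called members of largest change (at most 2 per direction where both had 2), the 3 highest and lowest by mean, the 3 most and least variable, members against the majority, MRP8, RSM22, PUF3, HAP4 and up to 2 called genes per list. Members and gene lists were chosen with earlier results of these data known, and the sets of 4 and 5 arrays likewise. Alternatives were array centring, quantile normalisation, a constant of 16, a background filter, only the groups compared, the t-test of the methods, limma's trend and robust settings, a replicate block and arrays left out. The large against small difference without the 5 arrays was added after seeing the data. Promoter motifs were not analysed here.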

Additional observations from a re-analysis of the deposited data

Results flagged for a closer look

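The response of the members to 2 of the strains differed between the limitations when limma tested the change under N-limitation minus that under C-limitation. For ino4Δ 6 members passed, with MRPL39 at -1.46, MRPL3 at -1.35, MRPL38 at -1.28 and MRPL19 at -1.26 on the log2 scale as the largest. For ino2Δino4Δ 21 members passed, with MRPL32 at 2.07, RSM19 at 1.89, MRPL37 at 1.66 and MRPS17 at 1.63. Both differences contain arrays whose INO2 or INO4 signal goes against the label. Both also contain reference N-limited 1, an array with the shared deviation, and the second holds ino2Δino4Δ N-limited 1 and 3 as well. Their part in these values was not tested beyond leaving them out.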

How the results depend on the processing

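Counts are of members called, of 66. Leaving out 1 array at a time gave 0 to 56 for ino4Δ C-limited, 41 to 51 for ino2Δino4Δ N-limited, 0 to 13 for ino2Δ C-limited, 0 to 1 for the reference N- against C-limited and for opi1Δ at minimum CO2, and 14 to 19 for maximum against minimum CO2. For the differences between limitations it gave 0 to 51 (ino4Δ), 12 to 29 (ino2Δino4Δ), 0 to 32 (ino2Δ) and 0 to 2 (opi1Δ). Of these fits, shares of all genes were taken only without ino2Δ C-limited 1, where 3.34% were lower for the ino2Δ difference. The other counts do not show whether the members moved more than all genes. The ino4Δ difference fell to 0 without reference C-limited 1 or 2, reference N-limited 1, ino4Δ C-limited 1 or 2, or ino4Δ N-limited 2 or 3. It was 2 without reference C-limited 3, 3 without reference N-limited 2, 1 without ino4Δ N-limited 1, and 51 without ino4Δ C-limited 3. The ino2Δino4Δ difference was 12 without reference C-limited 3 or ino2Δino4Δ C-limited 1, and 13 without reference N-limited 3 or ino2Δino4Δ N-limited 1.

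Without the 4 arrays the counts in either direction, each with the share of all genes, were 60 (26.5%) for ino4Δ C-limited, 9 (34.2%) and 7 (10.4%) for opi1Δ at maximum and minimum CO2, 2 (1.49%) for ino2Δ N-limited, 5 (25.5%) for the reference N against C, and 54 (17.8%) and 37 (11.1%) for the ino4Δ and ino2Δino4Δ differences. Without the 5 arrays they were 49 (35%) for ino4Δ C-limited, 6 (51%) for opi1Δ maximum CO2, 1 (2.68%) for ino2Δ C-limited, 2 (34.4%) for the reference, 7 (56.6%) for maximum against minimum CO2, and 1 (2.15%), 13 (11.7%) and 11 (11.6%) for the ino2Δ, ino4Δ and ino2Δino4Δ differences. Fits without the 5 arrays leave a single array of N-limited ino2Δino4Δ and a single array of opi1Δ at minimum CO2. The large minus small value of the opi1Δ difference was -0.025 without the 5 arrays, against -0.37.

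With only the compared groups fitted, the count was 40 for opi1Δ maximum CO2, where 36.1% of all genes were higher and 23.4% lower. It was 13 for ino2Δino4Δ N-limited (1.38% and 1.23%). It was 0 for ino4Δ C-limited (0.257% and 1.27%), the reference (6.24% and 6.39%) and the ino4Δ difference (0.716% and 0.606%). The t-test gave 12 for opi1Δ maximum CO2 (26.1% of all genes higher and 18.6% lower) and 1 for ino2Δ N-limited (0.0184% and 0.184%). It gave 6 for maximum against minimum CO2 (6.86% and 5.51%). It gave 0 for ino4Δ C-limited (0.0367% and 0.22%), ino2Δino4Δ N-limited (0.0918% and 0.239%) and the reference (3.3% and 4.28%). The reference count was 0 with centring or quantile normalisation, and leaving out genes below background gave 2 for opi1Δ maximum CO2. The cause of these changes was not tested.

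The deviations of same-numbered arrays from their group means correlated between -0.76 and 0.70. Of 55 pairs for each number, 12, 14 and 13 correlated above 0.1. With some pairs alike and most not, these values cannot decide whether the numbers pair the samples. With the replicate block 51 members were called in N-limited ino2Δino4Δ, 20 in C-limited ino4Δ and 0 in the reference, and the block moved no other count by more than 1.5 times.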
